A study of Mus musculus with 8 samples.

Results

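The chromatin loops of newborn mouse lens fiber cells were grouped by whether their anchors carried the DNA-binding protein CTCF. All 7682 loops of the fiber Hi-C list were used, out of 24146 loops listed for fiber cells, lens epithelium and ES cells together. An anchor was called bound when at least 1 bp of it was covered by a fiber CTCF peak, so that a loop had CTCF at both anchors, at 1 anchor or at neither. The first group held 3001 loops, the second 3403 and the third 1278. Loops were listed with anchors of 5, 10 or 25 kb, and because a wider anchor meets a peak more often, the groups were compared within each width. They numbered 422, 547 and 257 loops at 5 kb, 1101, 1453 and 609 at 10 kb, and 1478, 1403 and 412 at 25 kb, in the order both, 1 and neither.

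The lenses came from CD-1 mice at postnatal day 0.5 and were separated under a microscope into epithelium and fibers. Each fiber Hi-C replicate pooled the fibers of 30 lenses, fixed in 2.0% formaldehyde for 10 minutes, and both replicates were merged by the authors into 1 map and 1 loop list. CTCF ChIP-seq of the fibers started from 200 lenses, with 6 µg of chromatin and 5 µl of anti-CTCF antibody by the sample labels, and was deposited as 1 list of 23868 peaks. Epithelium of the same lenses (8005 loops and 16433 CTCF peaks) and wild-type v6.5 mESC cells, an ES cell line (8459 loops), served here to ask whether a fiber loop had a counterpart and whether epithelium CTCF lay at its anchors. The animals carried no engineered allele and received no treatment. Fibers taken by dissection hold cells from newly elongating to mature, whose loops are averaged in 1 map. The lists hold no expression, so that the labelled cell type could not be checked against its markers.

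CTCF binds DNA through a row of zinc fingers at a long, directional sequence motif. In the loop extrusion model, the ring-shaped cohesin complex reels in DNA from both sides until it meets CTCF bound with its motif pointing into the growing loop, and a pair of such sites facing each other marks the ends of many loops seen by Hi-C. Loops without CTCF at their ends are also known, among them contacts between enhancers and promoters or between domains of Polycomb-repressed developmental genes. Lens fibers leave the cell cycle, elongate, fill with crystallins and later degrade their nuclei.

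The direction of the CTCF motif could be read where a RefSeq promoter (assembly GRCm38.p6, 250 bases before a gene start to 50 after it) contained a fiber CTCF peak summit and lay in a loop anchor. The motif core searched was CCANNAGNNGGC on the forward strand and its reverse complement GCCNNCTNNTGG, where N is any base. Of 32851 promoters, 2.43% held it on either strand. It was present in 198 of the 1069 promoters with a fiber summit (18.5%, Wilson 95% interval 16.3 to 21.0%) and in 599 of the 31782 others (1.88%, 1.74 to 2.04%). The median distance from the motif centre to the summit was 23 bp over the 58 distinct sites at bound anchors. The core fixes 8 of 12 letters of a longer motif, so a match is a description, not a mapped site. The following sites, in loops with CTCF at both anchors, are shown on the genome's plus strand with the core in capitals, because the strand of the core against the side of the loop is what the comparison turns on.
Nifk, left anchor, chr1:118321737-118321766: agtttgtggCCAGTAGGTGGCgctcgagct
Pcp4, left anchor, chr16:96467580-96467609: cactgtgctCCACTAGGTGGCtctttgcgc
Pdzd9, left anchor, chr7:120670328-120670357: ttcgaatggCCACCAGGGGGCgctgcaagg
Snx18, right anchor, chr13:113618693-113618722: gccgccgctGCCACCTTGTGGcggctacgg
Gosr1, right anchor, chr11:76763666-76763695: ttagacactGCCACCTGGTGGacaattcgt
Cldn1, right anchor, chr16:26371888-26371917: gcatgcagcGCCCCCTGGTGGtttcgtggc
Bcl2l1, right anchor, chr2:152830699-152830728: tggctctccGCCTCCTACTGGgagtcagga
The left anchors carried the forward core and the right anchors its reverse complement, so that every one of these 7 sites pointed into its loop. These are examples picked from protein-coding genes, so their agreement is no result. Other sites of such loops pointed outward, as at the non-coding Snhg7, and the next paragraph counts all of them. Nifk encodes a nucleolar protein, Pcp4 a calmodulin-binding peptide, Snx18 and Gosr1 membrane-trafficking proteins, Cldn1 a tight-junction protein and Bcl2l1 an anti-apoptotic protein. Nifk, Cldn1 and Bcl2l1 were also at the bound anchor of a loop with 1 bound anchor, where their core again pointed inward. The core of Bcl2l1 lay 4 bp inside its gene start, and the other cores lay 11 to 143 bp before theirs.

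Over all promoters of this kind, the core pointed into the loop in 47 of 54 sites at anchors of loops with CTCF at both anchors (87.0%, 75.6 to 93.6%). By side, this was 22 of 26 sites in left anchors and 25 of 28 in right anchors, and of the 40 distinct sites, 35 pointed inward in every such loop, 3 outward, and 2 inward in one loop and outward in another. At the bound anchor of loops with CTCF at 1 anchor, 17 of 25 sites pointed inward (68.0%, 48.4 to 82.8%), an interval that includes 50%. The intervals for cores in promoters without a summit also included 50%, with 30 of 65 inward at bound anchors (46.2%, 34.6 to 58.1%) and 35 of 57 at unbound anchors (61.4%, 48.4 to 72.9%). Ndufaf4, for a mitochondrial complex I assembly factor, S100a6, for a calcium-binding protein, and Slc35f5 and Vps37d were among the promoters at the only bound anchor of their loop where the core pointed outward. Their sites show the forward core in a right anchor.
Ndufaf4, right anchor, chr4:24898018-24898047: tcctcccggCCACCAGGGGGCgacgagcgc
S100a6, right anchor, chr3:90612783-90612812: gggaccttgCCACTAGAGGGCaacagcatc
These loops spanned 180 and 110 kb, and both had a counterpart in epithelium. The direction of motifs away from promoters was not analysed here, since no genome sequence was at hand.

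**Figure D1:**
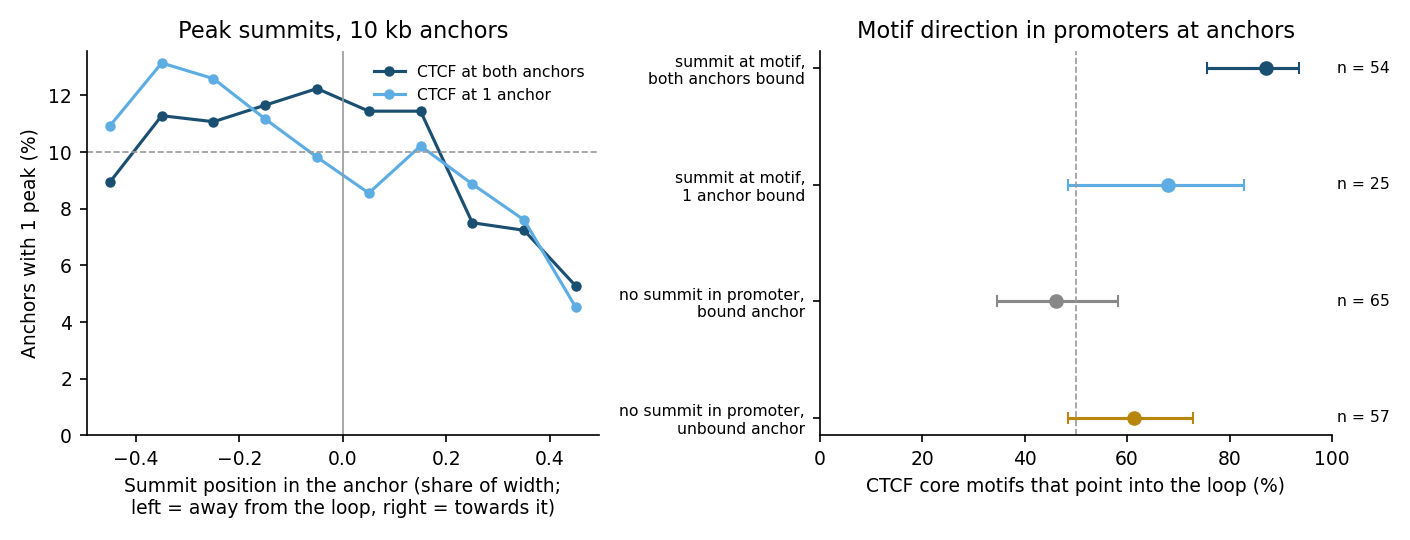
The left panel shows the position of the CTCF summit within 10 kb anchors that hold 1 peak, from the outer edge of the anchor (left) to the edge facing the loop (right), as percent of anchors by position, with an even spread drawn as a dashed line, and right, percent of CTCF cores in promoters that point into the loop, with Wilson 95% intervals and the number of sites. Summits sit more often in the outer part of the anchor, and 87.0% of the summit-bearing cores in loops with CTCF at both anchors point inward.

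Within the anchors that held 1 peak, summits lay more often on the side away from the loop. The outer side held 54.7% of summits at 5 kb, 56.4% at 10 kb and 57.5% at 25 kb in loops with CTCF at both anchors. In loops with 1 bound anchor it held 55.4, 59.3 and 61.5%, and the Wilson interval lay above 50% in all 6 sets, with the lowest bound at 51.0%. The median place of the summit, from the anchor's middle and negative on the side away from the loop, was -0.266, -0.514 and -1.73 kb at 5, 10 and 25 kb in the first group and -0.232, -0.93 and -2.32 kb in the second. One anchor can serve several loops, so these summits are not all distinct.

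Fiber CTCF covered far more anchors than bins of the same size taken over the whole genome. Of the 15364 anchors, 9405 were bound (61.2%, 60.4 to 62.0%). At 5 kb the share was 56.7%, beside 4.57% of all 5 kb bins, a 12.4-fold difference. At 10 kb it was 57.8% beside 8.51%, and at 25 kb 66.2% beside 18.6%, which is 6.79-fold and 3.55-fold. Binding of both anchors was slightly more common than their separate shares give. The product of the left and the right anchors' bound shares was 32.1, 33.4 and 43.8% at the 3 widths, and 34.4, 34.8 and 44.9% of loops had both bound. The observed share was above the product at each width. The Wilson intervals of the observed shares (31.8 to 37.1%, 33.2 to 36.5% and 43.2 to 46.6%) included the product at 5, 10 and 25 kb. These intervals do not hold the left and right shares fixed, so they cannot tell whether the anchors of a loop were bound independently. That was not tested. Among loops with 1 bound anchor, the bound one was the left in 1662 of 3403 (48.8%, 47.2 to 50.5%). The split into groups moved with the peak list. With the stronger 50% of fiber peaks, 18.8% of loops had CTCF at both anchors and 34.0% at neither, and with anchors widened by 5 kb on each side 57.3 and 7.88%, in place of 39.1 and 16.6%.

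**Figure D2:**
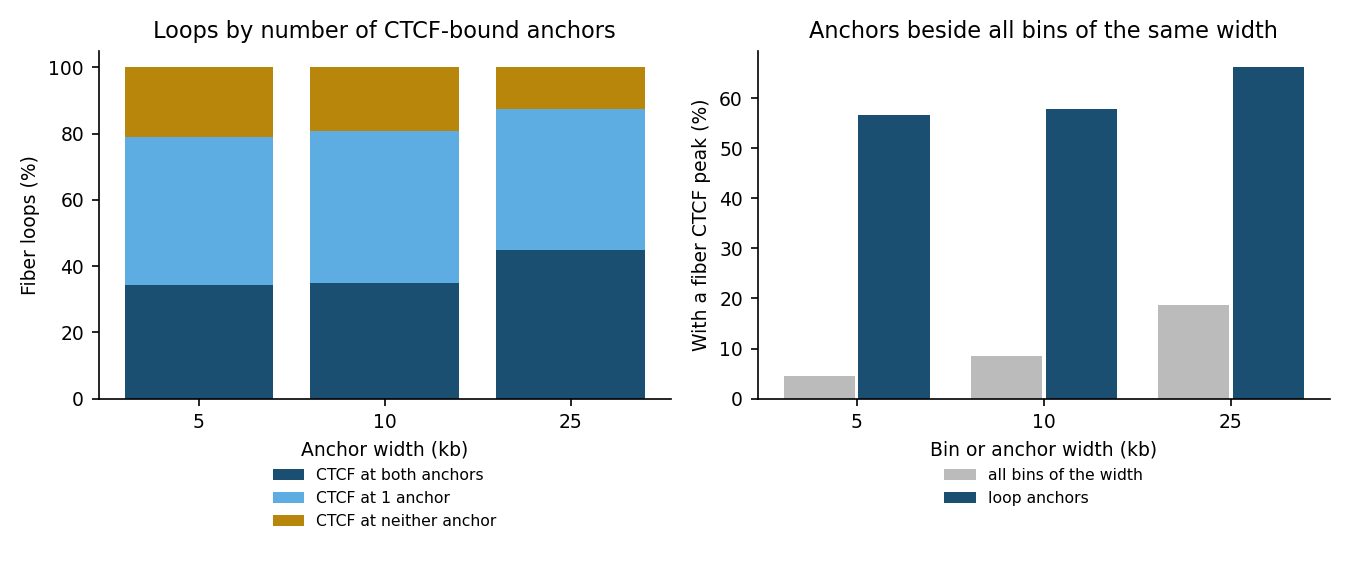
Left, percent of fiber loops with CTCF at both anchors, at 1 anchor and at neither, by anchor width in kb. Right, percent of all genomic bins (grey) and of loop anchors (blue) of the same width that hold a fiber CTCF peak. Anchors are bound in 56.7 to 66.2% and bins in 4.57 to 18.6%.

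Many anchors without a peak lay close to one. Of the unbound anchors at 5 kb, a peak edge was within 5 kb of 60.7% in loops with 1 bound anchor and of 50.4% in loops with none. Among all 5 kb bins without a peak, 7.94% had one that close. At 10 kb the shares were 39.4 and 35.0% against 7.66% of bins, and at 25 kb 22.0 and 21.1% against 7.0%. Whether these peaks belong to the loop could not be told from the lists. A total of 717 of 5959 unbound anchors had a peak within 1 kb, and 49 of the 9405 bound anchors were covered by under 50 bp of peak. The closest cases were an anchor at chr13:83710001-83715000 with 2 bp of overlap and anchors on chromosomes 8 and X that missed a peak by 1 bp.

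Peaks at anchors were stronger than peaks elsewhere. The 8244 peaks at any fiber anchor, 34.5% of the list, had a median fold enrichment of 7.10 (7.03 to 7.17), and the 15624 others one of 6.14 (6.10 to 6.20). The share of peaks at an anchor was 23.3, 30.3, 37.3 and 47.2% from the lowest to the highest quartile of fold enrichment. The groups themselves did not separate by peak strength, with a median of 7.09 (7.01 to 7.19) for peaks at loops with CTCF at both anchors and 7.13 (6.99 to 7.25) for peaks at loops with 1 bound anchor alone. A peak in epithelium overlapped 53.9% of the anchor peaks (52.8 to 55.0%) and 48.1% of the others (47.3 to 48.9%).

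Within a loop bound at both ends, the strength of the left and the right peak was nearly unrelated. The median of the weaker peak was 6.45, 6.37 and 6.33 at 5, 10 and 25 kb, and that of the stronger 9.30, 9.07 and 9.14. Spearman's correlation between left and right peak strength over loops was 0.029, 0.0035 and 0.0010, over 422, 1101 and 1478 loops, many of which share anchors. The weaker peak's strength was also weakly related to contact enrichment, though more than the peaks were to each other (0.040, 0.0996 and 0.077). From the lowest to the highest quartile of the weaker peak at 10 kb, median enrichment went from 3.14 (3.06 to 3.22) to 3.20 (3.12 to 3.41), and loops with a counterpart in ES cells from 53.9 to 56.0%. Most of these loops had a single peak at each anchor, 76.8% at 5 kb, 72.8% at 10 kb and 55.3% at 25 kb.

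Loops with CTCF at both anchors spanned longer distances than loops without CTCF. The distance between anchor midpoints had a median of 160 kb (145 to 175) at 5 kb, 220 kb (200 to 240) at 10 kb and 462.5 kb (450 to 475) at 25 kb. Without CTCF the medians were 125 kb (110 to 150), 140 kb (130 to 160) and 325 kb (275 to 375). Loops with 1 bound anchor lay at 170, 190 and 400 kb, between the other groups at 10 and 25 kb but not at 5 kb. The ratio of the medians, both over neither, was 1.28 at 5 kb (0.967 to 1.59 from the interval bounds of the medians), 1.57 at 10 kb (1.25 to 1.85) and 1.42 at 25 kb (1.20 to 1.73), so that at 5 kb the interval included 1. These intervals, as all others given here, cover counting error only: with 1 merged map and 1 peak list there was no replicate spread and no test was made.

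The difference in distance was seen in the short loops and at the upper quartile. At 10 kb the lower quartile was 120 kb with both anchors bound and 80 kb with none, and the upper quartile 410 and 290 kb. Loops of up to 100 kb made up 28.4% of loops with CTCF at both anchors and 42.0% of those without at 5 kb, 21.4 and 34.3% at 10 kb, and 3.79 and 12.9% at 25 kb. The shortest loops listed spanned 35, 50 and 100 kb at 5, 10 and 25 kb, so at 25 kb this bin holds loops of 100 kb alone. Read the other way, the share of loops with no bound anchor at 25 kb was 31.4% at 100 kb and 9.13% between 400 and 800 kb. At the far end the groups swapped, since loops above 3 Mb were 0.766% of loops with CTCF at both anchors (23 of 3001) and 2.35% of those without (30 of 1278). Of the 18 loops above 20 Mb, 12 had CTCF at neither anchor, 5 at 1 and 1 at both.

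**Figure D3:**
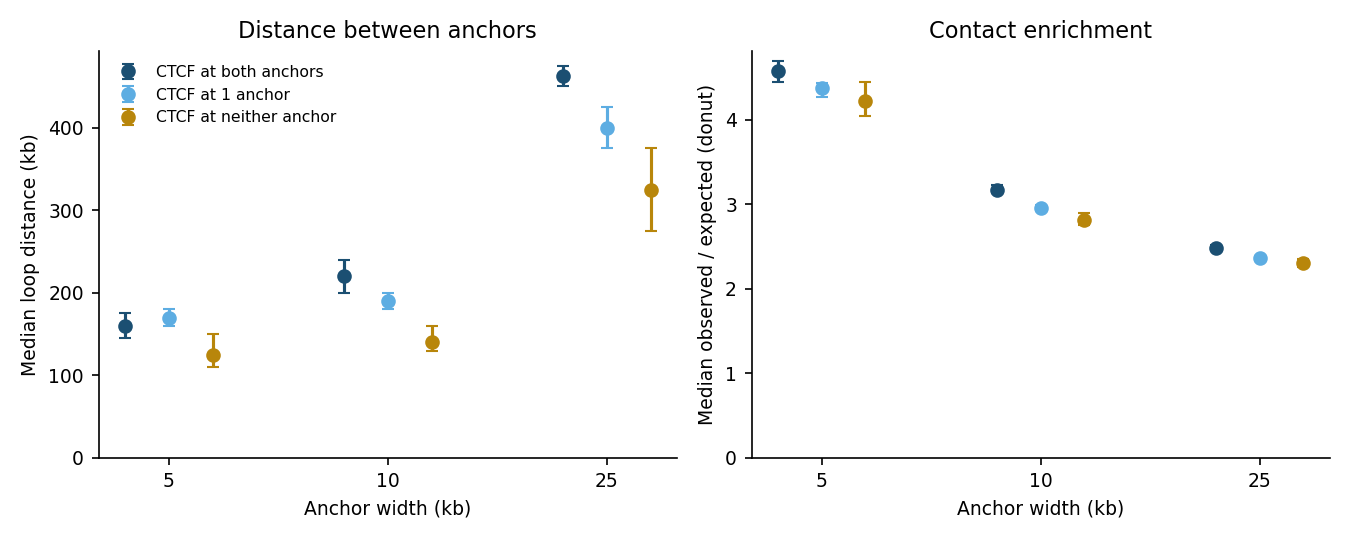
Median distance between anchors in kb (left) and median observed over expected contacts by the donut background (right) by anchor width and group, with order-statistic 95% intervals. Loops with CTCF at both anchors are the longest at 10 and 25 kb and have the highest enrichment at each width.

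Contact enrichment was highest with CTCF at both anchors. HiCCUPS, the loop caller, compares the observed contacts in a pixel with those expected from a ring of pixels around it (the donut). The median of observed over expected was 4.57 (4.44 to 4.69) with both anchors bound, 4.37 (4.27 to 4.43) with 1 and 4.22 (4.04 to 4.45) with none at 5 kb. At 10 kb it was 3.16 (3.13 to 3.22), 2.95 (2.92 to 2.99) and 2.81 (2.75 to 2.90), and at 25 kb 2.48 (2.45 to 2.52), 2.36 (2.33 to 2.38) and 2.30 (2.25 to 2.35). The ratio of both to neither was 1.08 (1.00 to 1.16), 1.13 (1.08 to 1.17) and 1.08 (1.04 to 1.12), and at 5 kb its unrounded lower bound fell just under 1. With anchors widened by 5 kb on each side, the 5 kb ratio turned to 0.923. The observed contacts themselves, a measure of the depth behind each loop, had medians of 30 (29 to 31), 28 (28 to 29) and 28 (26 to 28) at 5 kb, so that loops with both anchors bound also had more contacts there than those with none. At 10 kb they were 54, 52 and 52 with overlapping intervals, and at 25 kb 103 (100 to 106), 110 (106 to 114) and 98.5 (93 to 110). The part of this difference in depth in the enrichment was not tested.

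Because enrichment increases with distance, the groups were also compared in bins of distance. At 10 kb the medians with both anchors bound against none were 2.52 and 2.35 up to 100 kb, 3.05 and 2.72 at 100 to 200 kb, 3.37 and 3.09 at 200 to 400 kb, and 3.71 and 3.55 at 400 to 800 kb. In the last of these bins the intervals overlapped (3.51 to 3.94 and 3.39 to 3.77). At 5 kb they overlapped in every bin, as at 100 to 200 kb with 4.64 (4.44 to 4.83) and 4.22 (4.01 to 4.54). At 25 kb they overlapped at 100 to 200 kb and above 800 kb. At 25 kb the widest gap of this direction was 2.57 (2.52 to 2.62) against 2.34 (2.25 to 2.45) at 400 to 800 kb. In 1 of 5 bins at each width the order was the other way. These were loops above 800 kb at 5 kb, with a median of 5.83 for both and 61.0 for neither (16 loops), and at 10 kb, with 4.21 and 5.18 (28 loops). At 25 kb it was the bin up to 100 kb, which holds loops of 100 kb alone, with 2.14 (2.12 to 2.22) and 2.44 (2.20 to 2.83).

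**Figure D4:**
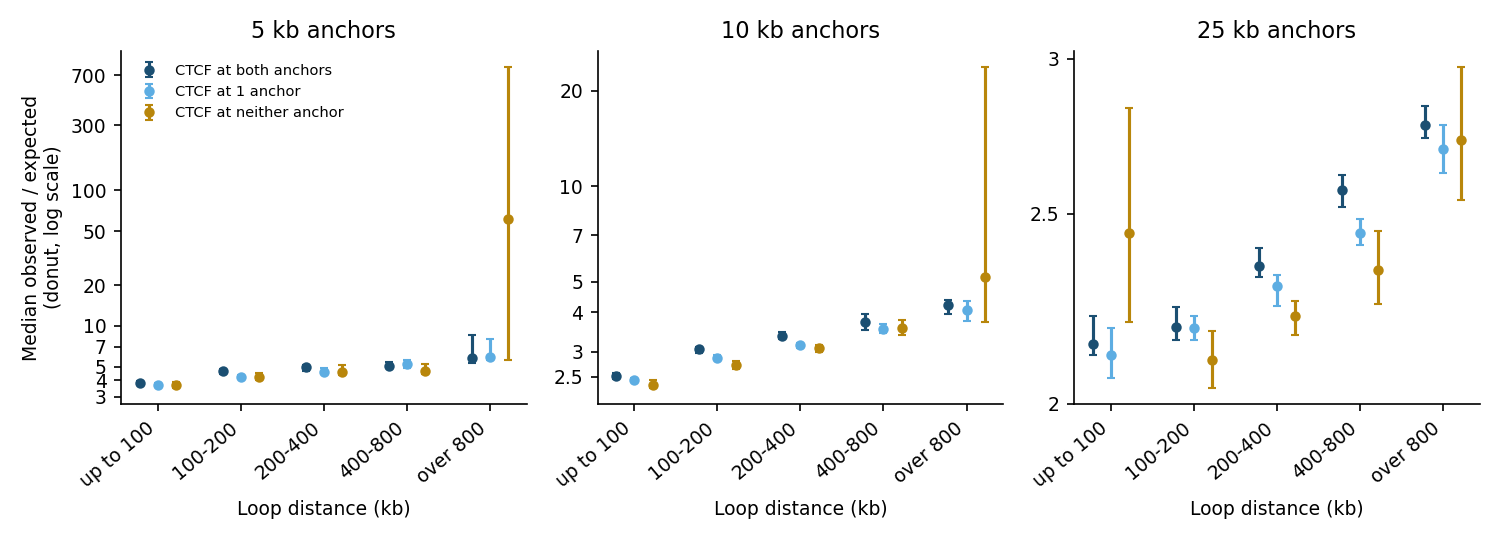
Median observed over expected contacts (donut, log scale, a separate scale for each panel) by loop distance in kb, for each anchor width and group, with order-statistic 95% intervals. By median, loops with CTCF at both anchors are above those without in 4 of 5 distance bins at each width, with overlapping intervals in every bin at 5 kb. The unbound loops above 800 kb at 5 kb anchors stand apart at 61.0.

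The most enriched loops of all were long ones whose expected count was close to 0. Without CTCF at 5 kb, the highest ratio was 5899, for a loop of 69.995 Mb between chr2:88920001-88925000 and chr2:158915001-158920000, from 23 observed contacts and 0.00390 expected. The next was 2095, for a loop of 35.26 Mb on chromosome 1 whose right anchor overlapped Spag16, for a sperm flagellum protein. With 1 bound anchor the highest was 4768, on chromosome 13 over 96.42 Mb with 16 contacts. With both bound it was 1426, on chromosome 11 over 54.87 Mb with 56 contacts, and this loop was listed in epithelium and ES cells too. The longest loop of all, 159.18 Mb on chromosome 2 with 19 contacts and 1 bound anchor, had a counterpart in ES cells. With CTCF at both anchors at 10 kb, where expected counts were larger, the top loop had 120 contacts over 17.1 expected, a ratio of 7.01, and spanned 420 kb on chromosome 12.

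Among loops of at most 3 Mb, a choice made after the values were seen, the highest ratio was 189.5 with CTCF at both anchors, over 2385 kb on chromosome 3 from 14 contacts, and 112.9 without, over 2920 kb on chromosome 7 from 25 contacts. High ratios without CTCF included pairs of related genes. The anchors of a 280 kb loop at a ratio of 55.1, from 15 contacts over 0.272 expected, overlapped Pramel21 and Pramel11. Those of a 1060 kb loop at 23.8, from 84 contacts over 3.53 expected, overlapped Mptx2 and Mptx1, for pentraxins of the mucosa. How reads of such related genes mapped was not tested. With CTCF at both anchors at 25 kb, the anchors of the top loop overlapped Zfp990 and, on the other side, Zfp978 and Zfp988, for zinc-finger proteins, over 1800 kb at 9.26, and the next overlapped Mzf1, for another zinc-finger factor, at its left anchor, over 1250 kb at 4.67.

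The number of pixels merged into a loop (numCollapsed) did not order the groups. Its median was 2 in all 9 groups of loops. More than 1 pixel was merged in 69.7, 69.8 and 67.3% of loops with CTCF at both, 1 and neither anchor at 5 kb, in 62.6, 67.4 and 60.8% at 10 kb and in 59.4, 64.0 and 54.4% at 25 kb. Loops with 1 bound anchor were the highest at each width. The difference of both from neither was 2.35, 1.82 and 5.04 percentage points, and its interval included 0 at every width (at 25 kb from -0.341 to 10.5). With the stronger 50% of peaks the 25 kb difference turned to -1.91 percentage points.

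Fiber loops with CTCF at both anchors were found more often in the other cell types. A counterpart was a loop with both midpoints within 10 kb, and a loop is called listed in another cell type by this rule. At 25 kb this tolerance is smaller than the bin, so a 25 kb loop listed 1 bin away did not count. In lens epithelium, one was listed for 89.1, 85.9 and 77.4% of fiber loops with CTCF at both, 1 and neither anchor at 5 kb, for 71.8, 63.9 and 54.7% at 10 kb, and for 48.4, 35.9 and 30.6% at 25 kb. In ES cells the shares were 85.3, 76.1 and 58.4%, 54.8, 42.2 and 29.4%, and 23.5, 15.8 and 8.50%. The difference of both from neither was 11.7 to 17.8 percentage points for epithelium and 15.1 to 26.9 for ES cells, and each of these 6 intervals lay above 0, the lowest bound being 5.92. Taking overlap of both anchors as the criterion gave 25.5 points at 5 kb for epithelium, and a tolerance of 25 kb gave 5.78. Loops found in neither other list made up 3.79% of the first group and 17.5% of the last at 5 kb, 18.3 and 39.1% at 10 kb, and 43.2 and 66.0% at 25 kb.

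The same order was seen among loops of like distance. At 10 kb and up to 100 kb, a counterpart in ES cells was listed for 50.4% (44.1 to 56.7%) of loops with CTCF at both anchors and 19.6% (14.8 to 25.5%) of those without. In bins of distance, the share in epithelium was higher with both bound in 4, 4 and 5 of 5 bins at 5, 10 and 25 kb, and so was that in ES cells. An exception was the 10 kb loops above 800 kb, where 71.4% of loops with CTCF at both anchors and 82.1% of the 28 without it had one in epithelium.

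**Figure D5:**
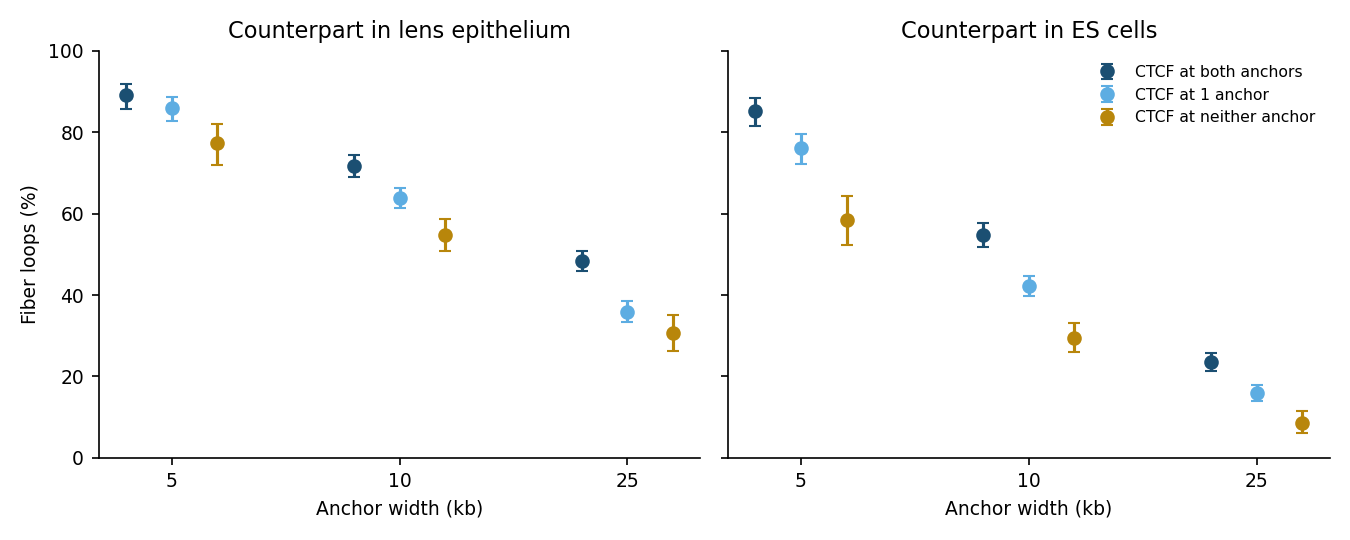
Percent of fiber loops with a counterpart in the lens epithelium list (left) and the ES cell list (right), by anchor width in kb and group, with Wilson 95% intervals. At each width the order is both anchors, 1 anchor, neither, from 89.1 to 77.4% in epithelium and from 85.3 to 58.4% in ES cells at 5 kb.

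Epithelium CTCF at the same anchors was compared too. By the epithelium peak list, 1161 of the 3001 fiber loops with CTCF at both anchors had both bound (38.7%), 1369 had 1 (45.6%) and 471 none (15.7%). Of the 1278 loops without fiber CTCF, 1152 had none in epithelium either (90.1%, 88.4 to 91.7%). Of all fiber loops, 16.9% had both anchors bound in epithelium and 37.9% had none. An epithelium peak overlapped 50.1% of all fiber peaks, so these groupings are not independent. The share with a counterpart in epithelium was similar whatever these peaks showed. Among 10 kb loops with CTCF at both anchors in fibers, it was listed for 72.4% (67.9 to 76.4%) where epithelium had both bound and for 67.9% (61.0 to 74.1%) where it had none. At 25 kb these were 44.9% (40.9 to 48.9%) and 49.3% (42.7 to 56.0%).

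Loops with CTCF at both anchors more often framed a TAD and shared their anchors. A loop sat at the corner of a TAD, with both borders of 1 fiber TAD in its anchors, in 9.24, 7.13 and 3.89% of loops at 5 kb in the order both, 1 and neither, in 8.08, 5.99 and 3.94% at 10 kb, and in 3.79, 2.99 and 1.46% at 25 kb. The difference of both from neither was 5.35, 4.14 and 2.33 percentage points, with intervals above 0. Corner shares were not compared among loops of like distance, and the median distance of loops without CTCF was shorter at each width. Loops with both midpoints in 1 TAD were 33.9, 36.9 and 36.2% at 5 kb, 29.9, 33.6 and 36.3% at 10 kb, and 20.5, 26.2 and 26.9% at 25 kb. With anchors widened by 5 kb on each side, the difference for these turned from -2.30 to 14.4 percentage points at 5 kb. A pair of different TADs was joined by 64 loops with both anchors bound (2.13%) and by 3 without CTCF (0.235%). No anchor overlap with any other fiber loop was found for 34.4, 42.2 and 57.2% of loops at 5 kb, 29.9, 35.7 and 51.7% at 10 kb and 15.4, 24.5 and 49.0% at 25 kb, so that loops without CTCF stood alone most often.

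The interior of the loops differed too. Per Mb between the anchors of loops of at most 3 Mb, there were 6.03, 5.52 and 5.16 fiber CTCF summits at 10 kb and 6.07, 4.66 and 3.77 at 25 kb in the order both, 1 and neither. At 5 kb the order was not kept, with 6.32, 6.24 and 6.98. By chromosome, CTCF at both anchors was least common on X, with 40 of 178 loops (22.5%, 17.0 to 29.1%), where 35.4% had none. The highest share was on chromosome 17 with 45.2% (39.3 to 51.3%), and both loops of chromosome Y were without CTCF.

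Gene starts were about as frequent at anchors with and without CTCF. A start of a protein-coding gene, taken as the 1 kb before it and the first 100 bp of the gene, lay at an anchor in 32.2, 28.7 and 29.6% of loops at 5 kb in the order both, 1 and neither, in 38.1, 38.2 and 36.0% at 10 kb and in 47.6, 48.1 and 43.0% at 25 kb. The difference of both from neither was 2.66, 2.10 and 4.60 percentage points, and the intervals included 0. The 25 kb difference was negative under 4 alternatives, from -0.867 with the start at the anchor's midpoint to -1.96 with epithelium peaks. Within loops with 1 bound anchor, the bound anchor held a start in 15.0, 20.2 and 28.0% and the unbound in 16.3, 22.7 and 28.9%. A gene start at each end was seen in 215 loops with both anchors bound (7.16%), in 205 with 1 (6.02%) and in 70 with none (5.48%). Of the 21887 protein-coding genes, 15.3% had a start at any anchor, 6.99% at a loop with CTCF at both anchors, 7.53% at one with CTCF at 1 anchor and 2.64% at one without. Of the 4267 pairs of a gene start and an anchor, 63.3% had a bound anchor. A single gene or peak can enter several pairs, so the intervals given below for shares of pairs are too narrow. In loops with CTCF at both anchors, a peak covered part of the start window itself in 24.5% of the 1813 pairs with a bound anchor.

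Developmental transcription factors were frequent at anchors. Of 119 genes of homeobox families, which set body axes and tissue identity, 50 had a start at an anchor (42.0%, beside 15.3% of all genes). Their loops numbered 30 with CTCF at both anchors, 20 with 1 and 7 with none, and 73.7% of the 76 pairs of gene and anchor were bound, beside 63.3% for all genes. The median distance of the 30 loops was 590 kb, beside 275 kb over all loops with CTCF at both anchors and a gene start. Both medians pool the anchor widths, and distance differs by width. Over all loops with CTCF at both anchors the medians were 160, 220 and 462.5 kb at 5, 10 and 25 kb. The gap between the pooled medians can therefore not be read as a trait of these genes. Of 82 Sox, Gata, Tbx and Fox genes, other families of transcription factors, 32 were at an anchor (39.0%), in 16, 24 and 4 loops, with 61.4% of pairs bound.

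The Hox clusters took part in this. Genes of Hoxd were at 8 loops of 240 to 1110 kb, 5 of them with CTCF at both anchors, and 6 of the 8 had a counterpart in epithelium. One of these, from Hoxd8 over 890 kb, had the highest ratio in the 4 clusters, 6.16. Hoxa genes were at 6 loops, 3 with both anchors bound, Hoxb genes at 4 and Hoxc genes at 4, with 3 each. Hoxd3 and Hoxa4 were also at a loop without CTCF, of 435 and 190 kb. Loops of Dlx5, for a factor of bone and forebrain, ran over 875, 1025 and 1250 kb with CTCF at both anchors, and all 3 were listed in epithelium and ES cells. Neighbouring genes of a cluster share an anchor, so their loops are not independent.

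Of 27 lens transcription factors, 14 had a start at an anchor (51.9%, beside 15.3% of all genes), 4 at loops with both bound, 12 with 1 and 2 with none. Over all 3343 genes at anchors the group with 1 bound anchor was also the largest, with 1648 genes. Of the 27 pairs of a lens factor and an anchor, 51.9% were bound (34.0 to 69.3%), beside 63.3% over all genes. Maf, the c-Maf factor that activates crystallin genes, had 4 loops from 1 bound anchor at chr8:115700001-115725000 or the 10 kb bin within it. Its loops of 440, 650 and 725 kb had CTCF at both anchors, with ratios of 3.35, 2.52 and 2.20, and all 3 were listed in epithelium and none in ES cells. Another, of 325 kb at 2.30, had 1 bound anchor and no counterpart. Hsf4, a heat-shock factor needed for fiber maturation, was in a 600 kb loop with both bound at 2.33, listed in neither other cell type. Sox2 was in an 840 kb loop with both bound at 4.28, present in all 3 lists, and in 2 loops of 325 and 400 kb with CTCF at the Sox2 anchor alone.

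Pax6, the factor needed to form the eye, was at 2 loops with 1 bound anchor, and in both the anchor with the Pax6 start was the unbound one. They spanned 50 kb at a ratio of 2.34, listed in all 3 cell types, and 525 kb at 2.14. The latter had 25 kb anchors and no counterpart within 10 kb in the other lists. Starts of Etv5, Eya1, Meis2, Gata3 and Tfap2a were likewise in the unbound anchor of loops with 1 bound anchor. Hif1a, the hypoxia factor, was the reverse, with 3 loops of 60, 125 and 190 kb from a bound anchor whose peak had a fold enrichment of 4.39. Without CTCF at either anchor were a loop of Six3, a homeobox factor of eye and forebrain, over 440 kb at 2.88, and a loop of Mab21l1, required for lens growth, over 250 kb at 2.51. Both had a counterpart in epithelium and none in ES cells.

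Of 16 genes for crystallins, the main proteins of the lens, 1 had a start at an anchor (6.25%, beside 15.3% of all genes, too few genes to read a difference). It was Crygs, in the unbound anchor of a 500 kb loop with 1 bound anchor, at a ratio of 3.25, listed in all 3 cell types. Of 26 genes for fiber membrane and cytoskeleton, 7 were at an anchor (26.9%, beside 15.3%), and 4 of their 11 gene and anchor pairs were bound (36.4%, 15.2 to 64.6%, an interval that includes the 63.3% of all genes). With CTCF at both anchors were a 50 kb loop of Grifin, for a lens galectin, at 3.40, and a 280 kb loop of Vim, for vimentin, at 3.21. Both were listed in epithelium and ES cells. Without CTCF were loops of Cdh2 (590 kb, 4.20), Gja1 (630 kb, 3.86), Nrcam (100 kb, 1.78), Sptbn1 (200 kb, 2.13) and, from an overlapping 25 kb anchor, Vim (175 kb, 1.90). These encode N-cadherin, a connexin, a cell adhesion molecule, a spectrin and vimentin.

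Of 25 genes of FGF, BMP, Wnt and Notch signalling, 12 were at an anchor (48.0%, beside 15.3% of all genes), and 23 of 27 gene and anchor pairs were bound (85.2%, 67.5 to 94.1%, beside 63.3%). Some genes entered several pairs with the same peak, as Hes1 and Fgfr2 below, so this interval is too narrow. Wnt7b had loops of 315 and 425 kb with CTCF at both anchors, and Wnt7a, another Wnt ligand, loops of 125 and 250 kb at 6.41 and 2.40, both present in all 3 lists. Hes1, a Notch target, had 3 loops with both bound, of 60, 120 and 425 kb, none of them with a counterpart, and another of 335 kb with 1 bound anchor that was in all 3 lists. Fgfr1, for an FGF receptor, was in a 300 kb loop with both bound at 4.14, and in a 240 kb loop from the same left anchor whose Fgfr1 end was unbound, at 3.69. The strand of Fgfr1 was not given, so either gene end counted as a start, and these loops meet its opposite ends. Both pairs are among the 27, though only 1 can be the gene's start. The 3 loops of Fgfr2, for a second receptor, had CTCF at the Fgfr2 anchor alone. Bmp4 and Notch2 were at loops without CTCF, of 310 and 70 kb.

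Other listed groups gave fewer members. In the order below, 22.2, 22.2, 17.4, 30, 33.3, 0 and 0% of their genes were at an anchor, beside 15.3% of all genes. Each group holds too few genes to read a difference. Of 18 genes of cell cycle exit, 4 were at an anchor, among them Cdkn1a and Cdkn2b, for cell cycle inhibitors, in loops with both bound of 50 and 200 kb. Of 18 genes of organelle loss and hypoxia, 4 were, and Vegfa, the vascular growth factor, was in a 300 kb loop with both bound at 6.11 that was in all 3 lists. Of 23 genes of the CTCF and cohesin machinery, 4 were, with Ctcf itself in a 50 kb loop with both bound at 2.04 that was listed in fibers alone, and Stag2, for a cohesin subunit, in a 225 kb loop without CTCF. Of 10 genes of lens epithelium, 3 were (Pax6, Gja1 and Slc38a2), and none of their 5 pairs was bound. Over all genes 63.3% of pairs were bound. Pax6 and Gja1 entered repeatedly, so these 5 pairs from 3 genes are too few to read a difference. Gja1 and Pax6 stand in an earlier list too, with the same loops. Of 6 endothelium genes 2 were, Cdh5 with both bound and Pecam1 with none, and none of 7 retina and 5 leukocyte genes was. These lists mark other cells that a dissected lens could carry, and anchors do not measure their expression.

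Ribosomal protein genes, active in every cell, were at anchors about as often as all genes (13 of 89, 14.6%), and 15 of their 17 pairs were bound (88.2%, 65.7 to 96.7%, beside 63.3%). Olfactory receptor genes, known mainly from the nose, were there less often (43 of 1110, 3.87%), with 24 of 48 pairs bound. How reads of these related genes mapped was not tested. Of 57 clustered protocadherins, cell-surface proteins of neurons whose promoters are known for CTCF sites, 12 were at anchors of 5 loops, 3 with both bound and 2 with 1, and 9 of the 12 pairs were bound. The most loops with both anchors bound were 4, for each of 7 genes, among them the histone genes H2ac11, H2ac12, H2bc11 and H2bc12 and Abt1 on chromosome 13. These histone genes had the same 4 loops, of 300 to 1725 kb. With 1 bound anchor, 19 genes had 3 loops each, among them Bcl6, a transcriptional repressor, and Bhlhe22, and without CTCF 31 genes had 2 each, among them Ahrr, the repressor of the aryl hydrocarbon receptor, and Cacna1g, a calcium channel.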

How the data were processed

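The authors made the Hi-C maps with the Arima kit, BWA and Juicer on mm10 from reads with a mapping quality of at least 30, and merged 2 replicates before calling loops (juicer_tools 2.13.06, HiCCUPS) and TADs (Arrowhead). The deposited loop list gives per loop the observed contact count, the expected signal of 4 backgrounds, an FDR as q-value and numCollapsed, and the TAD list gives a score. The deposited CTCF peak lists hold MACS2 summits, fold enrichment, −log10 of the p-value and q-value, and a score. Each CTCF list is 1 sample by the labels, while the study's methods give replicates and another amount of chromatin. The lists carry no replicate values, and depth is known here only as the observed contacts per loop.

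Overlaps of at least 1 bp, medians with order-statistic intervals, shares with Wilson 95% intervals and their differences with Newcombe's were obtained in Python (version 3.11.15, using scipy 1.17.1, pandas 2.3.3, numpy 2.4.6 and, for plots, matplotlib 3.10.9) and checked on simulated data. A gene start window took the 1 kb before the start and the 100 bp after it, with the strand known for 17492 of 21887 genes (79.9%) and either end taken for the rest. A summit count, a gene or a motif was assigned to an anchor by position alone. Genes were named when they were in a listed group, had the most loops in a group of loops (the first 5 by symbol among ties) or lay at the loops with the highest ratio or longest distance. Families were taken by symbol start. The members and lists were chosen with earlier results of these data known. Alternatives varied the peaks, anchors, counterparts, backgrounds and gene starts. Values of some listed genes are not reported here.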

Additional observations from a re-analysis of the deposited data

How the results depend on the processing

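No paired analysis was possible because both replicates of each cell type were merged before the loops were listed and each CTCF list gives 1 set of peaks, so that no replicate could be left out either. Of 289 values under alternatives, 228 stayed within the interval of the reported value and 61 did not, and no called difference changed sign. With anchors widened by 5 kb on each side, the distance ratio at 5 kb was 1.65, the enrichment ratio 0.923 at 5 kb and 1.06 at 10 kb, loops with both anchors bound 57.3% in all and 67.9, 55.5 and 54.9% at 5, 10 and 25 kb, those with neither 7.88, 6.28, 8.41 and 7.96%, and the differences (both minus neither, in percentage points) 14.4 for inside 1 TAD at 5 kb, -1.16 for gene starts at 25 kb, 46.7 for ES counterparts at 5 kb, 20.6 and 22.5 for epithelium counterparts at 5 and 10 kb, and 24.4 and 16.4 for numCollapsed at 5 and 10 kb. With epithelium peaks, the distance ratio at 25 kb was 1.13, both 16.9, 13.9, 14.6 and 20.2%, neither 37.9, 42.7, 42.8 and 31.4%, and the differences 1.77 for TAD corners at 10 kb, -7.31 and -1.96 for gene starts at 5 and 25 kb, 18.8, 17.5 and 9.33 for ES, and 11.5 and 6.60 for epithelium at 10 and 25 kb. With the 11927 peaks of fold above 6.44, both were 18.8, 17.3, 16.5 and 21.6%, neither 34.0, 36.1, 37.2 and 30.1%, and the differences -1.60 for gene starts at 25 kb, 5.57 and 11.4 for epithelium at 5 and 25 kb, and -1.91 for numCollapsed at 25 kb. Counterparts by overlap differed by 41.8 for ES at 5 kb and 25.5 and 23.5 for epithelium at 5 and 10 kb, and those within 25 kb by 19.9, 5.78 and 11.5. The enrichment ratio at 25 kb was 1.02 with the horizontal background, 1.03 with the lower left one (1.06 at 10 kb) and 1.14 among loops with numCollapsed above 1, where neither was 15.7% in all and 11.2% at 25 kb and the ES difference 18.1 at 5 kb. A gene start at the anchor midpoint gave -0.867 at 25 kb. The cause of these shifts was not tested. Within the interval stayed peaks of −log10 q above 3, summits inside anchors, fdrDonut under 0.01, loops of up to 3 Mb, centroid distances, the vertical background, gene bodies, whole anchors in a TAD and, chosen after seeing the data, either gene end for every gene. By chromosome, distance was longer with both bound on 15, 18 and 15 of 20 at 5, 10 and 25 kb, enrichment higher on 18 at each width, epithelium sharing on 16, 19 and 16, ES sharing on 17, 20 and 19, and numCollapsed on 10, 10 and 14. Sharing within distance bins was also added after seeing the data. Loops are listed only above the caller's threshold, so a missing counterpart can be a loop just under it, and 13 to 24 contacts lie behind most loops above 20 Mb.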

Other observations

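A pair of 5 kb loops on chromosome 17 shared the anchor chr17:39845001-39850000, whose stronger peak had a fold enrichment of 2.95. One ran 3615 kb to the left with 405 observed contacts over 0.265 expected, a ratio of 1529, and had CTCF at that anchor alone. The other ran 16160 kb to the right, to an anchor that overlapped Mpnd and Stap2, and had CTCF at both anchors. It had 160 contacts over 0.281 expected, a ratio of 569.5. Both loops were listed in epithelium and ES cells. At 5 kb the median of observed contacts was 28 for loops with a single bound anchor and 30 with both bound. How reads mapped at the shared anchor was not tested, so no role of CTCF can be read from these loops.

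On chromosome 5, a 10 kb loop with CTCF at 1 anchor reached a ratio of 31.2 from 15 contacts, over 1030 kb, and its bound anchor overlapped Zfyve28. On chromosome 12 the bound anchor of a 3350 kb loop with a ratio of 25.1 from 19 contacts overlapped Nrcam, away from its start, and the other anchor overlapped Immp2l and no peak. The Nrcam start was at a 100 kb loop without CTCF.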
